A study of Mus musculus with 12 samples.

Results

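Axon guidance ligands and receptors are the genes by which a growing axon reads its surroundings. They were taken here as all probe sets whose single gene symbol in the platform annotation names a netrin, Dcc, an Unc5 receptor, a Slit, a Robo, a semaphorin of classes 3 to 7, a neuropilin, a plexin, an ephrin or an Eph receptor. The rule found 156 of the 45101 probe sets, which belong to 71 of the 18193 named genes. Of these 71, 68 are guidance ligands or receptors. The other 3 match by spelling alone: Unc50, which encodes a Golgi protein, Unc5cl, an intracellular relative of the Unc5 receptors, and Plxna4os1, an antisense transcript of Plxna4.

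The families pair ligands with receptors on the growth cone. Netrins attract axons through Dcc and repel them through Unc5 receptors, and Slits repel axons through Robo receptors. Secreted class 3 semaphorins signal through neuropilins and plexins, membrane semaphorins mostly through plexins, and ephrins signal on contact to Eph tyrosine kinases, mainly ephrin-A to EphA and ephrin-B to EphB. The same proteins also guide neural crest cells and blood vessels, so their messages are not restricted to neurons.

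RNA of differentiating mouse embryonic stem cells was measured on 12 Affymetrix arrays, 3 in each of 4 groups: CAG150 cells at day 6, HM1 cells at day 6, CAG150 cells at day 4 and HM1 cells at day 4 of neuronal differentiation. HM1 is an established mouse line, male and deficient in Hprt, and the CAG150 cells carry expanded CAG repeats, for which the labels name no locus. The labels give 1 line of each kind, and nothing says that a group's samples came from separate cultures, so a p-value here covers the spread between these arrays alone. The descriptions give an earlier day for HM1 at day 6 than the titles and a single replicate number for all samples of day 6, so groups and numbers follow the titles.

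Values are intensities on a linear scale, without a unit, and are comparable between arrays but not between genes. Median intensity was 19.2 to 25.9 over the 12 arrays, and within a group any 2 arrays correlated at 0.99 over all genes. Differences are of log2(intensity + 16) ± SE, which understates the change of dim genes, and adjusted p-values are limma's over the 12280 genes with enough signal. A gene is called higher or lower where this p is under 0.05. In a mixed culture, fewer cells of a type and less RNA per cell cannot be told apart. Precision is limited by having 3 arrays per group. The list of 15 postmitotic neuron markers, all tested, summed to 23900.2 to 25079 in CAG150 cells and 16587 to 18854 in HM1 cells at day 6, and 4208 to 4683 in CAG150 cells and 5126 to 5312 in HM1 cells at day 4, so the cultures held neuronal messages in both lines. Stmn2 alone, a neuronal tubulin regulator, averaged 607 ± 56.8 in CAG150 cells and 2108 ± 100.9 in HM1 cells at day 4 (SD, n = 3 each), where the list's median difference was 0.28, opposite in sign to its sums.

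Of the 71 genes, 59 had a mean of log2(intensity + 16) above the filter of 4.8, which corresponds to an intensity of 11.9, and were tested. The 12 that were not are Ntn3, Ntn5, Robo4, Sema3g, Sema4a, Sema6b, Efna1, Epha1, Epha6, Epha8, Unc5cl and Plxna4os1. Among them, the receptor Epha1 measured 0.643, 13.6 and 5.88 in CAG150 cells and 6.16, 7.87 and 0.782 in HM1 cells at day 6, against 16.5, 13.9 and 8.38 in CAG150 cells and 29.1, 27.4 and 27.5 in HM1 cells at day 4. All 3 HM1 arrays of day 4 lay above every other array. Sema6b, a membrane semaphorin, reached 24.7 in CAG150 cells at day 4. Apart from Epha1 and Sema6b, none of the 12 was above 20.3 on any array.

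Among the guidance genes that were called between the days, most were higher at day 6, in both lines. In CAG150 cells 25 of the 59 tested genes were higher and 8 lower at day 6 (55.9% called, against 44.4% of all 12280 genes). In HM1 cells 27 were higher and 7 lower (57.6%, against 38.9% of all genes). The 27 include Unc50, and 26 are guidance ligands or receptors. The Unc50 call was lost without HM1 day 6 replicate 1 or 2, CAG150 day 4 replicate 1 or HM1 day 4 replicate 1 or 3 (adjusted p up to 0.14). The background splits nearly evenly, with 22.5% of all genes higher and 21.9% lower in CAG150 cells, and 20.4% higher and 18.5% lower in HM1 cells. The median difference of the 59 was 0.34 in CAG150 cells and 0.37 in HM1 cells, against 0.00 for all genes in either line. Calls in the same direction were shared by 26 genes, which is 78.8% of the CAG150 calls and 76.5% of the HM1 calls. Over all genes the shares were 65.5% and 74.8%, and no guidance gene was called in opposite directions.

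**Figure D1:**
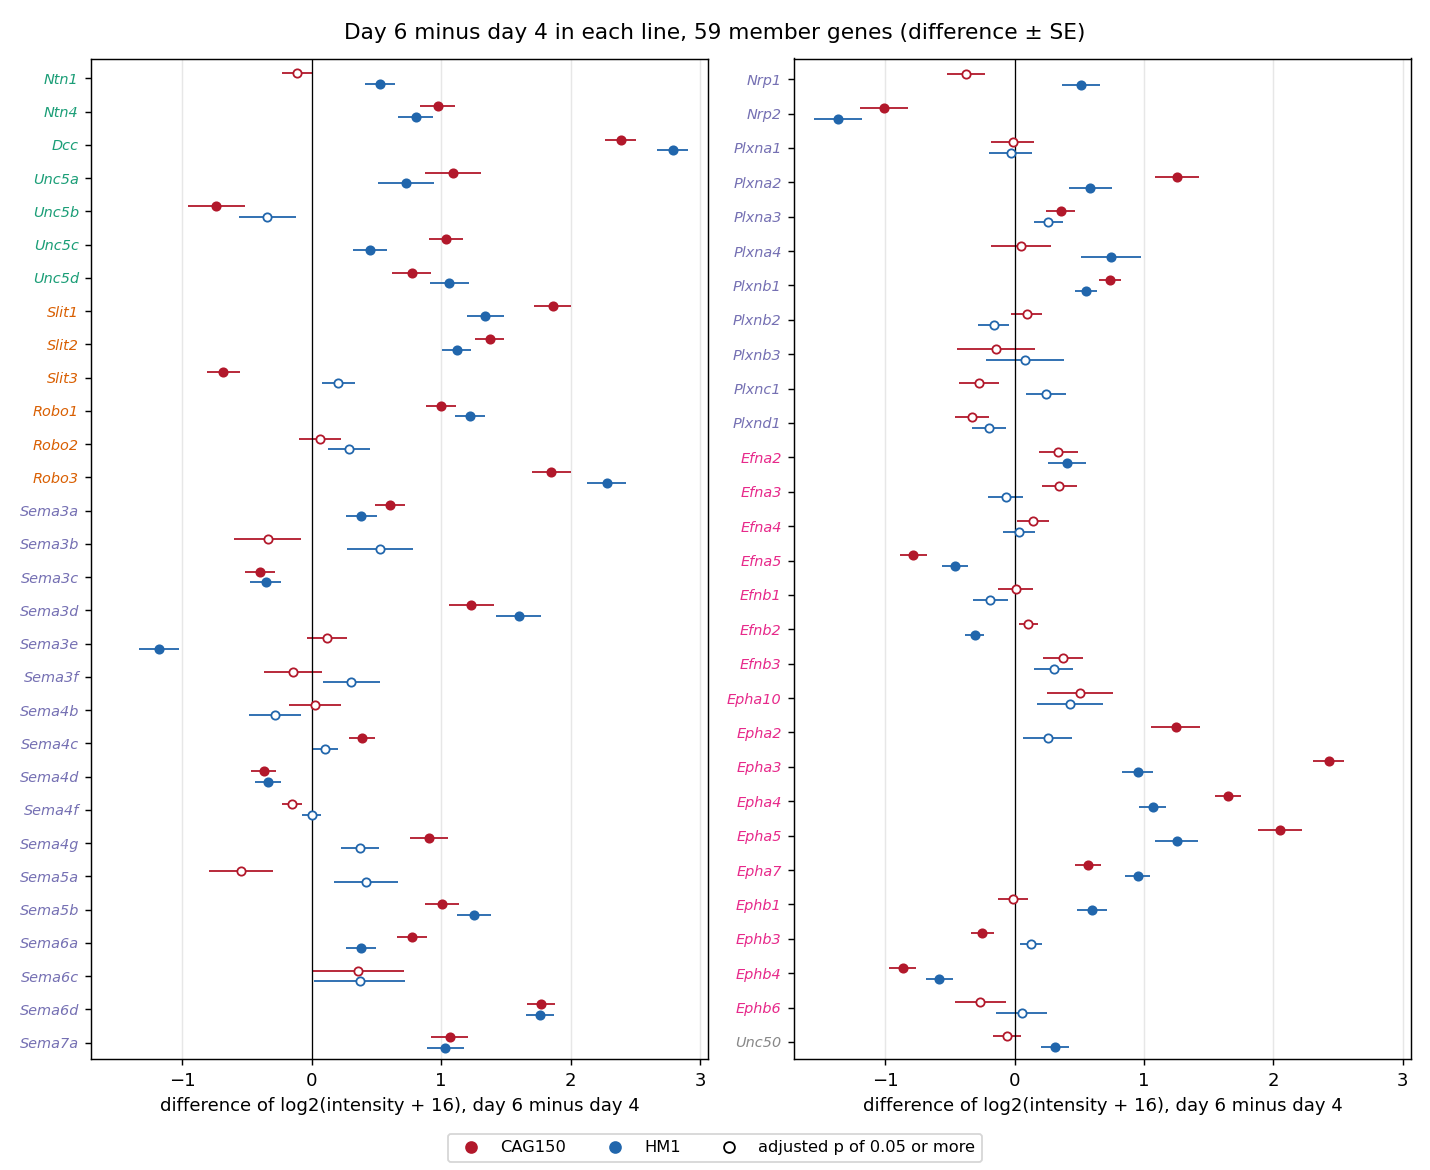
Log2 difference between day 6 and day 4 for the 59 tested genes, in CAG150 cells and in HM1 cells. Dcc, Epha3 and Robo3 lie far out among the genes that were higher at day 6, and Nrp2 and Ephb4 lie among those that were lower in both lines.

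Between the lines the calls went both ways. At day 6, 10 of the 59 were higher in CAG150 cells than in HM1 cells and 12 were lower (37.3% called, against 21.4% of all genes, 10.1% higher and 11.2% lower). At day 4, 11 were higher and 8 lower (32.2%, against 15.8% of all genes, 7.87% higher and 7.92% lower). The median differences of the 59 were 0.02 at day 6 and -0.00 at day 4, against -0.00 and 0.01 for all genes. Leaving out CAG150 day 4 replicate 1 or 2 brought the 11 higher genes at day 4 to 7 and 6. At day 6, 8 to 13 genes were called lower when 1 array was left out, against 12 with all arrays. The arrays of the lines did not overlap for 28 of the 59 at day 6 and for 27 at day 4, where 38.6% and 34.4% of all genes did not overlap. Dcc, Epha3, Ntn4, Robo1 and Slit2 were higher and Ephb3, Nrp2, Sema3c and Sema3e lower at both days. These 9 genes are 40.9% of the day 6 calls and 47.4% of the day 4 calls, against 39.4% and 53.3% over all genes.

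**Figure D2:**
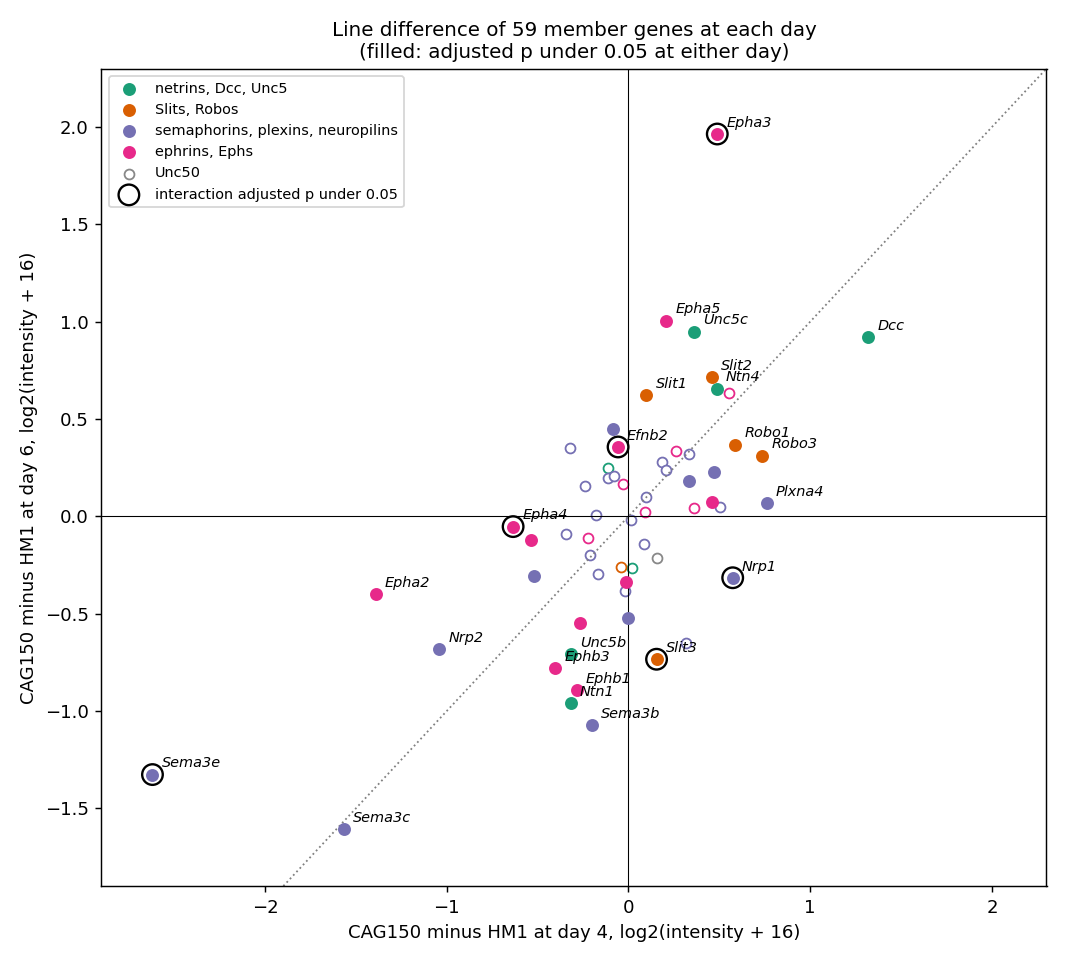
Log2 difference between CAG150 and HM1 cells at day 6 against that at day 4 for the 59 tested genes, coloured by system. Filled points were called at 1 or both days, and ringed points had a called difference between the days. Epha3 lies highest at day 6, Dcc farthest toward higher values at day 4, and Sema3c and Sema3e at the lower end of both axes.

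The change with the day itself differed between the lines for 6 of the 59 genes (10.2%, against 3.61% of all genes). The day change in CAG150 cells minus that in HM1 cells was positive for Epha3, Sema3e, Epha4 and Efnb2 and negative for Nrp1 and Slit3. Of all genes 1.58% were called positive and 2.03% negative. The sign does not give the size of the change. Sema3e changed by 0.12 in CAG150 and -1.18 in HM1 cells, Efnb2 by 0.11 and -0.31, and Slit3 by -0.68 and 0.21. Epha3 and Sema3e passed under every processing alternative and without any 1 array, and so did Slit3 except under the stricter filter, where it was not tested. Leaving out 1 array gave 2 or 3 genes with a positive value and 1 to 3 with a negative one. Nrp1 lost its call without CAG150 day 6 replicate 1 or 3, HM1 day 6 replicate 1 or 3, CAG150 day 4 replicate 1 or 2 or HM1 day 4 replicate 1 or 3 (adjusted p up to 0.086). The same held for Epha4 without CAG150 day 6 replicate 1, 2 or 3, HM1 day 6 replicate 1 or 2, CAG150 day 4 replicate 1, 2 or 3 or HM1 day 4 replicate 1 or 3 (adjusted p up to 0.11) and for Efnb2 when any 1 of the 12 arrays was left out (adjusted p up to 0.11).

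Genes of chromosomes 8 and 11 were shifted between the lines in their median difference. Position along the chromosome was not examined. The median CAG150 minus HM1 difference was 0.24 at day 6 and 0.20 at day 4 over the 671 tested genes of chromosome 8. It was 0.23 at day 6 and 0.17 at day 4 over the 1007 genes of chromosome 11, against -0.03 and -0.02 over the other 10602 genes. Nrp1, Efnb2 and Unc5d lie on chromosome 8, and Ntn1, Slit3 and Efnb3 on chromosome 11. The part of these shifts in the results for those 6 genes was not tested. Of their calls between the lines, Efnb2 at day 6 and Nrp1 at day 4 had the sign of the shift of their chromosome, and Ntn1 and Slit3 at day 6 had the opposite sign.

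The netrin receptor Dcc had the clearest pattern of its system. It measured 1101, 1044 and 1188 in CAG150 cells, against 598, 539 and 602 in HM1 cells at day 6. At day 4 it measured 195, 209.7 and 193 in CAG150 cells, against 70.6, 87.7 and 55.1 in HM1 cells. No group overlapped another, with CAG150 above HM1 at each day and day 6 above day 4 in each line. The line difference was 0.92 ± 0.12, adjusted p = 0.00017 at day 6 and 1.32 ± 0.12, adjusted p = 1.3e-05 at day 4. Its difference between the days was 2.39 ± 0.12, adjusted p = 1.6e-08 in CAG150 cells and 2.79 ± 0.12, adjusted p = 5.9e-09 in HM1 cells. A second probe set gave line differences of 1.33 and 1.13, both called, while the dimmest of its probe sets gave 0.31 and 0.02, neither called.

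**Figure D3:**
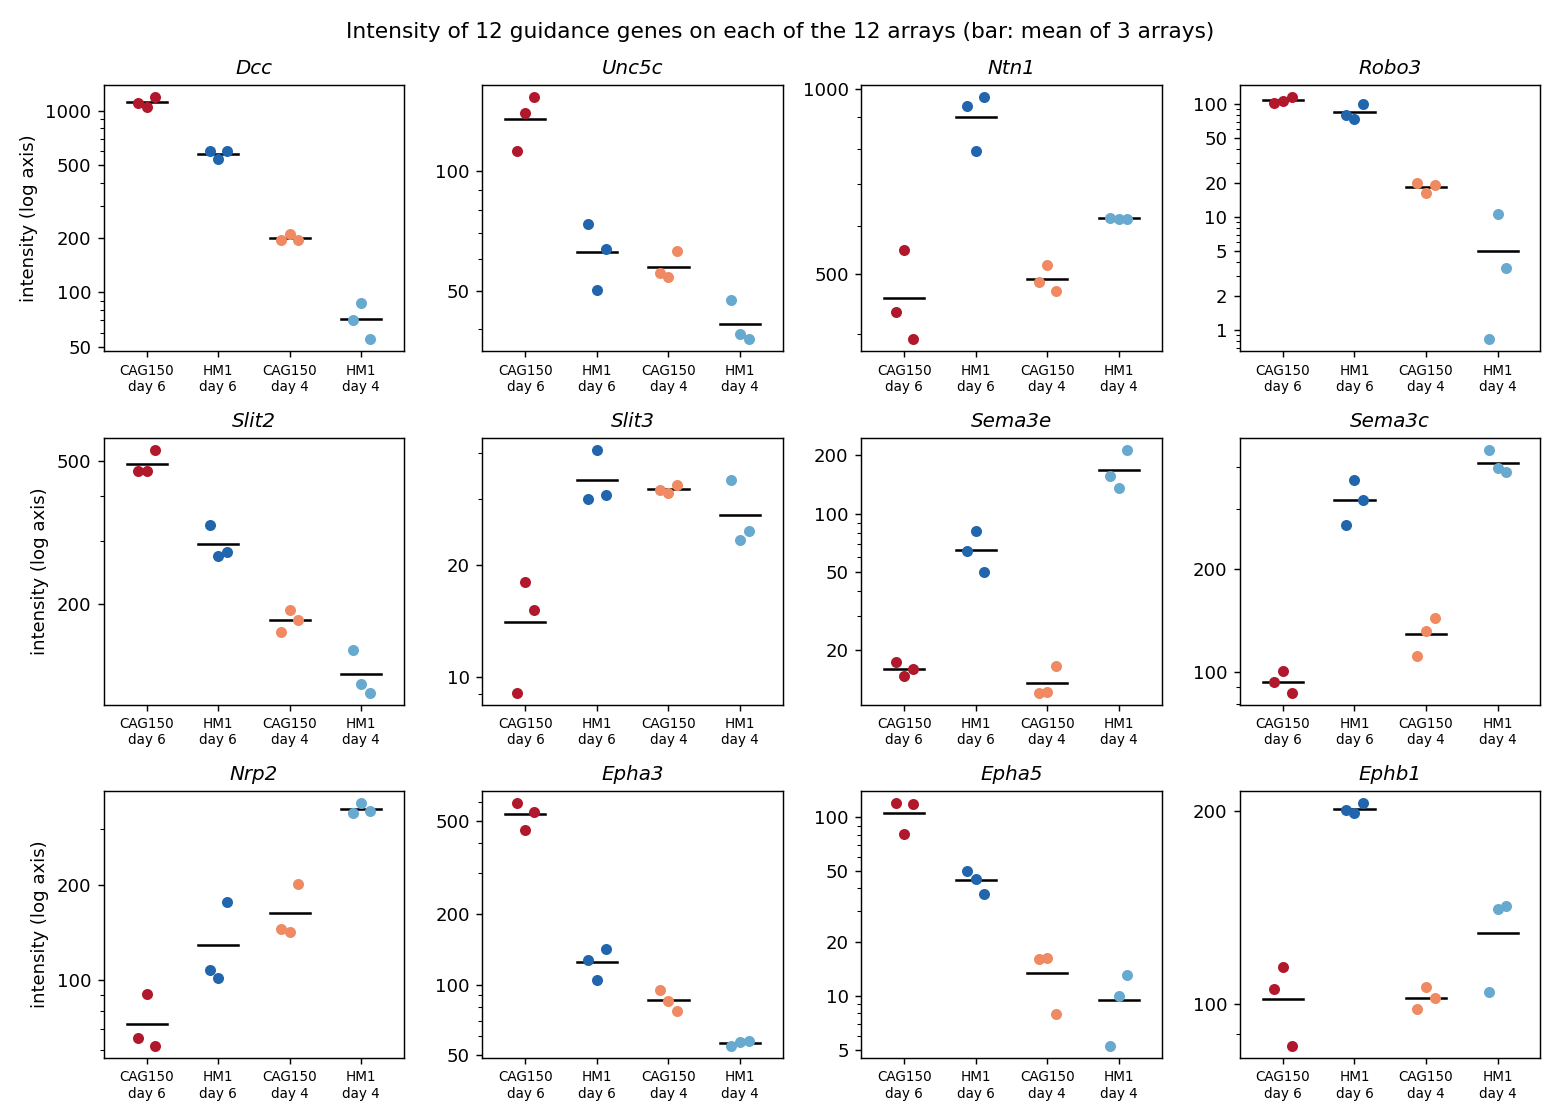
Intensity on each array, on log axes that differ between panels, for 12 guidance genes in the 4 groups, with bars at the means of 3 arrays. Dcc, Unc5c, Slit2, Epha3 and Epha5 are highest in CAG150 cells at day 6, while Sema3e, Sema3c and Nrp2 are highest in HM1 cells at day 4.

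Unc5c, a receptor that mediates repulsion by netrin, measured 113, 140.5 and 154 in CAG150 cells, against 73.8, 50.3 and 63.9 in HM1 cells at day 6. All 3 CAG150 arrays lay above the HM1 arrays, and the difference was 0.95 ± 0.13, adjusted p = 0.00025. At day 4 the difference was 0.36 ± 0.13, adjusted p = 0.081. Unc5b, a relative also known from blood vessels, measured 13.2, 16.8 and 1.88 in CAG150 cells, against 31.3, 27.8 and 20.1 in HM1 cells at day 6 and was lower in CAG150 cells (-0.71 ± 0.22, adjusted p = 0.037). With pseudocounts of 1 and 64 the Unc5b difference was -1.58 and -0.28, and its call was lost without CAG150 day 6 replicate 3 or HM1 day 6 replicate 1 or 2 (adjusted p up to 0.14). Unc5a and Unc5d, the remaining Unc5 receptors, were dim and not called between the lines at either day. Both were higher at day 6 than at day 4 in each line, Unc5a by 1.09 in CAG150 cells and 0.73 in HM1 cells, and Unc5d by 0.77 in CAG150 cells and 1.06 in HM1 cells. At pseudocount 64 these 4 differences were 0.42, 0.27, 0.31 and 0.45. The HM1 call of Unc5a was lost without HM1 day 6 replicate 3 or HM1 day 4 replicate 1 or 3 (adjusted p up to 0.079).

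The netrins themselves went in opposite directions. Ntn1, the netrin made by the floor plate and by progenitors of the neural tube, measured 434, 547 and 392 in CAG150 cells, against 936, 792 and 969.7 in HM1 cells at day 6. The lines did not overlap, and the difference was -0.96 ± 0.12, adjusted p = 9e-05. At day 4 it measured 487, 518 and 470.2 in CAG150 cells, against 618, 616 and 616 in HM1 cells, a difference of -0.32 ± 0.12, adjusted p = 0.085, which was not called although the arrays did not overlap. Ntn1 was higher at day 6 than at day 4 in HM1 cells (0.53 ± 0.12, adjusted p = 0.0033) and differed by -0.11 ± 0.12, adjusted p = 0.47 between the days in CAG150 cells. The difference between these changes had adjusted p = 0.054. A second, dim probe set of Ntn1 gave -0.24 at day 6 and 0.20 at day 4, neither called.

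Markers of the floor plate went both ways at day 6, with more lower than higher in CAG150 cells. Of 10 genes on that list 5 were tested, of which 1 was higher and 4 were lower in CAG150 cells at day 6, and 0 and 3 at day 4. These are 100% and 60% called, against 21.4% and 15.8% of all genes. Shh, its secreted signal, averaged 25 ± 8.63 in CAG150 cells and 62.3 ± 8.77 in HM1 cells at day 6 (SD, n = 3 each). Also lower there, and dim, were Foxa2 (19.1 in CAG150 and 44.4 in HM1 cells), Nkx2-9 (4.55 and 19.0) and Spon1 (18.2 and 35.4). Lmx1b was the gene that was higher, at 73.5 ± 8.78 in CAG150 cells and 30.1 ± 8.75 in HM1 cells at day 6 (difference 0.97 ± 0.16, adjusted p = 0.00088). The list summed to 140.2 to 179 in CAG150 cells and 210.1 to 244 in HM1 cells at day 6, and 132 to 143 in CAG150 cells and 193 to 225 in HM1 cells at day 4. Its part in the Ntn1 result was not tested. Ntn4, a netrin of basement membranes, measured 115, 113 and 130.3 in CAG150 cells, against 68.1, 71.6 and 70.0 in HM1 cells at day 6, with no overlap, and was higher in CAG150 cells (0.66 ± 0.14, adjusted p = 0.0044). At day 4 its difference was 0.49 ± 0.14, adjusted p = 0.028, which was lost without CAG150 day 4 replicate 2 or 3 or HM1 day 4 replicate 2 or 3 (adjusted p up to 0.11).

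All 3 Slits were called between the lines at day 6. Slit2 measured 468, 470.0 and 536 in CAG150 cells and 332, 272 and 278 in HM1 cells at day 6, against 167, 192 and 180.2 in CAG150 cells and 148, 119.6 and 113 in HM1 cells at day 4. CAG150 arrays lay above HM1 arrays at both days, with line differences of 0.71 ± 0.11, adjusted p = 0.00072 at day 6 and 0.46 ± 0.11, adjusted p = 0.016 at day 4. The day 4 call was lost without CAG150 day 4 replicate 2 or HM1 day 4 replicate 2 or 3 (adjusted p up to 0.062). Slit1 measured 155, 128 and 109 in CAG150 cells, against 87.4, 65.4 and 83.9 in HM1 cells at day 6, with no overlap (0.62 ± 0.14, adjusted p = 0.0081). Its second, dimmer probe set had the opposite sign at day 6 (-0.32) and was not called, and the mean of both probe sets was not called.

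Slit3 departed from the other Slits. It measured 9.11, 18 and 15.1 in CAG150 cells and 30.1, 40.7 and 30.9 in HM1 cells at day 6, against 31.8, 31.2 and 32.8 in CAG150 cells and 33.9, 23.3 and 24.7 in HM1 cells at day 4. The CAG150 arrays of day 6 lay below all other arrays, with a line difference of -0.73 ± 0.13, adjusted p = 0.0015 at day 6 and 0.15 ± 0.13, adjusted p = 0.46 at day 4. The change between days was -0.68 ± 0.13, adjusted p = 0.00089 in CAG150 cells and 0.21 ± 0.13, adjusted p = 0.23 in HM1 cells. The difference between these changes was called (-0.89 ± 0.18, adjusted p = 0.019).

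Among the Robo receptors, Robo1 was higher in CAG150 cells at both days. It measured 668, 534 and 696 in CAG150 cells, against 511, 448 and 493 in HM1 cells at day 6, with the lowest CAG150 array just above the highest HM1 array. It measured 344, 274 and 304 in CAG150 cells, against 188, 214 and 194 in HM1 cells at day 4. The differences were 0.37 ± 0.12, adjusted p = 0.038 at day 6 and 0.59 ± 0.12, adjusted p = 0.0044 at day 4. The day 6 call was lost without CAG150 day 6 replicate 1 or 3 or HM1 day 6 replicate 1, 2 or 3 (adjusted p up to 0.14). It was also lost with median centring, without a filter, with a pseudocount of 1, with single probe sets and with only the groups compared (adjusted p up to 0.11). With its probe sets averaged the day 4 difference was 0.22, adjusted p = 0.19. Robo3, which lets commissural axons approach the midline, measured 102, 108 and 116 in CAG150 cells and 80.0, 74.4 and 99.8 in HM1 cells at day 6, against 20.0, 16.3 and 19.1 in CAG150 cells and 0.832, 10.8 and 3.55 in HM1 cells at day 4. Its arrays at day 6 lay above all arrays of day 4, with day differences of 1.85 ± 0.15, adjusted p = 8.8e-07 in CAG150 cells and 2.28 ± 0.15, adjusted p = 1.9e-07 in HM1 cells. Its line difference was called at day 4 (0.74 ± 0.15, adjusted p = 0.0052) and was 0.31 ± 0.15, adjusted p = 0.16 at day 6. Because HM1 arrays at day 4 were dim, the day 4 line difference was 2.07 and 0.26 with pseudocounts of 1 and 64, and the HM1 day difference 4.21 and 1.11. Robo2 stayed between 8.2 and 26.8 on all arrays and was not called in any comparison.

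Among the secreted class 3 semaphorins, every call between the lines was toward lower values in CAG150 cells. Of 7 genes 6 were tested, of which 0 were higher and 3 lower at day 6, and likewise at day 4. At each day 50% were called, against 21.4% of all genes at day 6 and 15.8% at day 4. Sequence before the transcription start is shown for Sema3e and Sema3c, and for the neuropilin gene Nrp2, because these genes were lower together at both days. It is also shown for the Eph receptor genes Epha3 and Epha5, which were higher at day 6. Each run is the 250 bases before the RefSeq start in GRCm38.p6, 5′ to 3′ on the gene's strand. Capitals mark matches, on either strand, to any of 4 motifs. The TATA box was searched as TATAAA. For the GC box, a site of the Sp1 family, the letters were GGGCGG. The remaining pair were the CCAAT box, searched by the letters of its name, and an E-box. That E-box was spelled CAGCTG.
Sema3e, chr5:14025026-14025275, plus strand: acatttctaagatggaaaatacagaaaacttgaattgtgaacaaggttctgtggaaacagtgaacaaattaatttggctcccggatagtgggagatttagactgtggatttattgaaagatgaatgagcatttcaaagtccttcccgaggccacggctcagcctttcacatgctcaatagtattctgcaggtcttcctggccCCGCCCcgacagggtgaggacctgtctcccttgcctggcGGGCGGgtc
Sema3c, chr5:17574566-17574815, plus strand: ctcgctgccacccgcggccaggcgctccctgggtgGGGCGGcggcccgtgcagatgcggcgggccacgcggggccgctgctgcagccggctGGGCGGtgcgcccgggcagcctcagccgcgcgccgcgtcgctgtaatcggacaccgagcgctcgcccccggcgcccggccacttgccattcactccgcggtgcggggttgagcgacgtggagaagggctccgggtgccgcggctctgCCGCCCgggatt
Nrp2, chr1:62703067-62703316, plus strand: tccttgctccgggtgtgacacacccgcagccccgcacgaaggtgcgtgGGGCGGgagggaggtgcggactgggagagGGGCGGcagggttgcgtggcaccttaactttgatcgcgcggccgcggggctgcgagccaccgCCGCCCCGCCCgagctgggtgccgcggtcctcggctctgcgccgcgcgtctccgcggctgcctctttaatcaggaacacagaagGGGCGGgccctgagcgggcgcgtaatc
Epha3, chr16:63864176-63864425, minus strand: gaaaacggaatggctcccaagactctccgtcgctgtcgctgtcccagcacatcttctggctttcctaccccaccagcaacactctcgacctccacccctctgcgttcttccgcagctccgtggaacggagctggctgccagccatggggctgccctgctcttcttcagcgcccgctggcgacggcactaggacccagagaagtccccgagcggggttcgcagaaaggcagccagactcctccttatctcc
Epha5, chr5:84417383-84417632, minus strand: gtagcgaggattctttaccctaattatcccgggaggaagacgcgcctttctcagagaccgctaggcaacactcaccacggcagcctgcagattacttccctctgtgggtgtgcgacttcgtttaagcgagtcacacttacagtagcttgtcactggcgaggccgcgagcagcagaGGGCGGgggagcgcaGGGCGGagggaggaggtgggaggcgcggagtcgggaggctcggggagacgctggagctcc
The GC box matched 2 times before Sema3e, 3 times before Sema3c, 5 times before Nrp2 with 1 overlap between matches, and 2 times before Epha5. The window of Epha3 held none of the 4 motifs, and the motifs other than the GC box matched in none of the 5. Among 32851 RefSeq windows of this length, 32.7% held the GC box, 12.4% the TATA box, 33.8% the CCAAT box and 13% the E-box. RefSeq promoters were matched by symbol for 60 of the 71 genes.

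Sema3e, known in mouse for repelling blood vessels through Plxnd1, measured 17.4, 14.7 and 15.9 in CAG150 cells, against 64.1, 81.2 and 50.2 in HM1 cells at day 6. At day 4 it measured 12.1, 12.2 and 16.5 in CAG150 cells, against 156, 136 and 212 in HM1 cells. No CAG150 array came near an HM1 array at either day, and the differences were -1.33 ± 0.16, adjusted p = 6.8e-05 at day 6 and -2.62 ± 0.16, adjusted p = 2.8e-07 at day 4. It was lower at day 6 than at day 4 in HM1 cells (-1.18 ± 0.16, adjusted p = 7.7e-05), while the day difference in CAG150 cells, already low at day 4, was 0.12 ± 0.16, adjusted p = 0.58. The difference between these changes was 1.29 ± 0.22, adjusted p = 0.0061. All 4 probe sets of Sema3e were lower in CAG150 cells at day 4.

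Sema3c, a guide of cardiac neural crest cells in mouse, measured 93.4, 100.1 and 86.7 in CAG150 cells, against 270.5, 366 and 321 in HM1 cells at day 6. Its day 4 values were 111, 132 and 144 in CAG150 cells, against 448, 398 and 387 in HM1 cells. The groups of the lines were well apart at both days, with differences of -1.61 ± 0.12, adjusted p = 1.5e-06 and -1.56 ± 0.12, adjusted p = 2.7e-06 at days 6 and 4. Both of its probe sets were lower at both days. Sema3b was at the edge of detection, at 2.56, 8.61 and 1.41 in CAG150 cells, against 19.7, 28.5 and 30.5 in HM1 cells at day 6, a called difference of -1.07 ± 0.26, adjusted p = 0.011 that was -0.40 with a pseudocount of 64. Sema3a, the classic collapsing factor of growth cones, was lower in CAG150 cells at day 4 (-0.52 ± 0.12, adjusted p = 0.0098). Its second probe set gave 0.06 there, and at day 6 the difference was -0.30 ± 0.12, adjusted p = 0.085. Sema3d rose with the day in both lines, by 1.23 in CAG150 cells and 1.60 in HM1 cells, and was not called between the lines.

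Nrp2, a coreceptor of Sema3c and of Sema3f, measured 65.9, 90.6 and 62.1 in CAG150 cells, against 108, 102 and 177 in HM1 cells at day 6. The lowest HM1 array lay above the highest CAG150 array there, while at day 4 the values were 145, 142 and 202 in CAG150 cells, against 339, 363 and 343 in HM1 cells, far apart. The differences were -0.68 ± 0.19, adjusted p = 0.02 at day 6 and -1.04 ± 0.19, adjusted p = 0.0024 at day 4. The day 6 call was lost without CAG150 day 6 replicate 1 or 3 or HM1 day 6 replicate 3 (adjusted p up to 0.078). All 3 Nrp2 probe sets above the filter were lower in CAG150 cells at both days. Nrp2 was also lower at day 6 than at day 4 in both lines, by -1.01 ± 0.19, adjusted p = 0.00076 in CAG150 cells and -1.37 ± 0.19, adjusted p = 9.9e-05 in HM1 cells.

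Nrp1, the coreceptor of Sema3a and of Vegfa, changed order between the days. It measured 118, 139 and 102 in CAG150 cells, against 152, 124 and 185 in HM1 cells at day 6. The day 4 values were 165, 177 and 139 in CAG150 cells, against 100.2, 117 and 90.4 in HM1 cells. The lines overlapped at day 6 and not at day 4, and the differences were -0.32 ± 0.15, adjusted p = 0.15 at day 6 and 0.57 ± 0.15, adjusted p = 0.018 at day 4. The day 4 call was lost without CAG150 day 4 replicate 1 or 2 or HM1 day 4 replicate 1 or 3 (adjusted p up to 0.07). The 3 other probe sets gave 0.07, 0.22 and 0.24 at day 4, none called. The difference between the day changes was -0.89 ± 0.21, adjusted p = 0.033.

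Between the lines, smooth muscle markers had the same direction as Sema3e, Sema3c and Nrp2, while in HM1 cells their changes between the days were mixed. Of 12 genes on the smooth muscle and fibroblast list 8 were tested. Of these 0 were higher and 5 lower in CAG150 cells at day 6, and likewise at day 4 (62.5% called, against 21.4% and 15.8% of all genes). All 12 genes of the list summed to 321 to 358 in CAG150 cells and 4867 to 5824 in HM1 cells at day 6. At day 4 their sums were 538 to 594 in CAG150 cells and 3303 to 3799.6 in HM1 cells. Most of the HM1 sum was Acta2 and Tagln, contractile genes of smooth muscle. Acta2 averaged 162 ± 9.6 in CAG150 cells and 2889.6 ± 221 in HM1 cells at day 6, and Tagln 38.2 ± 7.39 in CAG150 cells and 1762 ± 278 in HM1 cells (SD, n = 3 each). The fibroblast collagen genes Col1a1 and Col1a2 were not called between the lines, with differences of -0.24 and -0.27 at day 6 and 0.22 and 0.20 at day 4. Col3a1, also a collagen gene of the list, was lower in CAG150 cells at day 6 (-1.42 ± 0.18, adjusted p = 0.00015). At day 4 Col3a1 was not called (-0.24 ± 0.18, adjusted p = 0.42). Between the days in HM1 cells, 4 genes of the list were higher and 2 lower at day 6. Acta2 rose there by 0.84, Tagln by 0.34, Col1a1 by 0.36 and Col3a1 by 1.49, and Col1a2 was lower (-0.47). The smooth muscle genes Cnn1 (-0.12) and Myl9 (-0.07) were not called there. Sema3e, Sema3c and Nrp2 changed by -1.18, -0.36 and -1.37. In CAG150 cells 0 genes of the list were higher and 5 lower at day 6. Of the list 75% and 62.5% were called, against 38.9% and 44.4% of all genes. Of 12 endothelial markers 6 were tested, of which 0 were higher and 3 lower at day 6, and 0 and 2 at day 4 (50% and 33.3% called). The endothelial sum was 113 to 168 in CAG150 cells and 193 to 196 in HM1 cells at day 6, and 85.3 to 105 in CAG150 cells and 124 to 169 in HM1 cells at day 4, and the defining markers Pecam1, Cdh5, Tie1 and Emcn were below the filter. The part of these cell types in the semaphorin and neuropilin results was not tested.

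Of the tested plexins 11.1% were called between the lines at day 6 and 11.1% at day 4, and of the membrane semaphorins 9.09% and 18.2%, against 21.4% and 15.8% of all genes. Of 9 plexins, all tested, only Plxnc1, the Sema7a receptor, was called at day 6 (-0.52 ± 0.15, adjusted p = 0.028) and only Plxna4 at day 4 (0.76 ± 0.23, adjusted p = 0.041). Plxna4 measured 33.9, 36.5 and 20.3 in CAG150 cells, against 0.762, 17.3 and 18.9 in HM1 cells at day 4, with 1 HM1 array far below all others of that day, and the call was lost without CAG150 day 6 replicate 1, 2 or 3, HM1 day 6 replicate 1 or 2, CAG150 day 4 replicate 1 or 2 or HM1 day 4 replicate 1 (adjusted p up to 0.13). The Plxnc1 call was lost without CAG150 day 6 replicate 2 or 3 or HM1 day 6 replicate 2 or 3 (adjusted p up to 0.087). Plxnd1, the Sema3e receptor, was not called in any comparison, with line differences of -0.30 at day 6 and -0.17 at day 4. Of 13 membrane semaphorins 11 were tested, of which 1 was called at day 6, Sema4g (0.45 ± 0.14, adjusted p = 0.043). At day 4 Sema4f (0.33 ± 0.08, adjusted p = 0.011) and Sema5b (0.47 ± 0.13, adjusted p = 0.027) were higher in CAG150 cells. The Sema4f call was lost with median centring (adjusted p = 0.067) and with its probe sets averaged (0.18, adjusted p = 0.31), and the Sema5b call with quantile normalization (adjusted p = 0.053). The call of Sema4g was lost without CAG150 day 6 replicate 1 or 3, HM1 day 6 replicate 1, 2 or 3, CAG150 day 4 replicate 1 or HM1 day 4 replicate 2 (adjusted p up to 0.16), and that of Sema5b without CAG150 day 4 replicate 1 or 2 or HM1 day 4 replicate 1 or 2 (adjusted p up to 0.095).

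Between the days, 63.6% of the membrane semaphorins were called in CAG150 cells and 45.5% in HM1 cells, and 33.3% of the plexins in either line, against 44.4% and 38.9% of all genes. Of the 11 tested membrane semaphorins 6 were higher and 1 lower at day 6 in CAG150 cells, and 4 and 1 in HM1 cells. Sema6d, a Plxna1 ligand, measured 336, 388 and 293 at day 6, against 85.5, 94.9 and 82.5 at day 4 in CAG150 cells. In HM1 cells it measured 341, 298 and 303 at day 6, against 73.6, 88.1 and 81.1 at day 4. The days did not overlap in either line, with changes of 1.77 ± 0.11, adjusted p = 7.8e-08 in CAG150 cells and 1.77 ± 0.11, adjusted p = 1e-07 in HM1 cells. These changes differed by 0.00 ± 0.15, with an adjusted p of 1. Sema5b, Sema6a and Sema7a were also higher at day 6 in both lines, by 0.77 to 1.06 in CAG150 cells and 0.38 to 1.25 in HM1 cells. For Sema6a in HM1 cells another probe set had the opposite sign, and with its probe sets averaged the change was 0.12, adjusted p = 0.52. That call was also lost with quantile normalization or median centring (adjusted p up to 0.13). Sema4d, which acts through Plxnb1, was lower at day 6 in both lines (-0.37 in CAG150 and -0.34 in HM1 cells), while Plxnb1 was higher (0.74 and 0.55). With its probe sets averaged the Sema4d change in HM1 cells was -0.13, adjusted p = 0.23, and the call was lost. Of the plexins, 3 were higher at day 6 in CAG150 cells and 3 in HM1 cells, with Plxna2 and Plxnb1 in both. In HM1 cells the day call of Sema6a was lost without HM1 day 6 replicate 3 or HM1 day 4 replicate 3 (adjusted p up to 0.078), that of Sema4d without HM1 day 6 replicate 2 or HM1 day 4 replicate 1 or 3 (adjusted p up to 0.068), that of Plxna2 without HM1 day 6 replicate 1 or 2 or HM1 day 4 replicate 2 (adjusted p up to 0.072) and that of Plxna4 without HM1 day 6 replicate 2 or 3 or HM1 day 4 replicate 1 (adjusted p up to 0.064). The CAG150 call of Plxna3 was lost without CAG150 day 6 replicate 1 or 2 or CAG150 day 4 replicate 1 or 3 (adjusted p up to 0.07).

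Eph receptors were counted by class. At day 6, of 6 tested EphA receptors 2 were higher in CAG150 cells and 0 lower, and of 4 tested EphB receptors 0 were higher and 3 lower. These are 33.3% and 75% called, against 21.4% of all genes, with medians of 0.35 and -0.66. At day 4, 2 EphA receptors were higher and 2 lower, and 0 EphB receptors were higher and 1 lower (66.7% and 25%, against 15.8% of all genes). With the day, 5 EphA receptors were higher and 0 lower in CAG150 cells and 4 and 0 in HM1 cells (83.3% and 66.7%). For EphB receptors the counts were 0 and 2 in CAG150 cells and 1 and 1 in HM1 cells (50% in each). Of all genes 44.4% and 38.9% were called. The 2 include Ephb3 (-0.25 ± 0.09, adjusted p = 0.034). Its call was lost without replicate 1 or 3 of CAG150 day 6 or day 4 (adjusted p up to 0.14). It was also lost without a filter and with a pseudocount of 64, single probe sets, only the groups compared or a trended robust prior.

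Epha3, a receptor of ephrin-A5 whose upstream sequence is printed above, had the largest line difference among the guidance genes at day 6. It measured 593, 457 and 546 in CAG150 cells, against 128, 104 and 142 in HM1 cells at day 6. On the arrays of day 4 it measured 94.5, 85.3 and 77.3 in CAG150 cells, against 54.8, 56.6 and 57.6 in HM1 cells. CAG150 arrays at day 6 lay far above all others, and the lines did not overlap at day 4 either. The differences were 1.96 ± 0.12, adjusted p = 2.7e-07 at day 6 and 0.49 ± 0.12, adjusted p = 0.015 at day 4, where the call was lost without CAG150 day 4 replicate 1 (adjusted p = 0.06). The day change was 2.43 ± 0.12, adjusted p = 1.3e-08 in CAG150 cells and 0.95 ± 0.12, adjusted p = 4.9e-05 in HM1 cells, and these differed by 1.48 ± 0.17, adjusted p = 0.00045. All 4 probe sets were higher in CAG150 cells at day 6.

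Epha5, another ephrin-A receptor, measured 119.7, 80.3 and 119 in CAG150 cells and 50.3, 45.4 and 37.3 in HM1 cells at day 6, against 16, 16.3 and 7.94 in CAG150 cells and 5.27, 9.95 and 13.2 in HM1 cells at day 4. CAG150 arrays at day 6 lay above all others and the lines overlapped at day 4. The line difference was 1.01 ± 0.17, adjusted p = 0.0011 at day 6 and 0.21 ± 0.17, adjusted p = 0.45 at day 4. With pseudocounts of 1 and 64 the day 6 difference was 1.23 and 0.64. The 3 other probe sets of Epha5 gave 0.27, 0.31 and 0.36 at day 6, none called. Epha4, which also binds ephrin-B ligands, measured 801, 796 and 895 in CAG150 cells, against 881, 768 and 942 in HM1 cells at day 6, where the lines overlapped (-0.05 ± 0.10, adjusted p = 0.76). At day 4 it measured 263, 234 and 265 in CAG150 cells, against 442, 369 and 401 in HM1 cells, with all CAG150 arrays lower (-0.63 ± 0.10, adjusted p = 0.0011). With its probe sets averaged the day 4 difference was -0.33, adjusted p = 0.06, and the call was lost. Epha7 differed at day 4, at 791, 712 and 738 in CAG150 cells, against 572, 539 and 507 in HM1 cells, a difference of 0.46 ± 0.10, adjusted p = 0.0075, and by 0.07 ± 0.10, adjusted p = 0.64 at day 6. Epha2, also found in early embryonic cells, measured 9.97, 15.2 and 5.24 in CAG150 cells, against 40.6, 49.1 and 68 in HM1 cells at day 4 (-1.39 ± 0.19, adjusted p = 0.00031), or -2.34 and -0.65 with pseudocounts of 1 and 64. Of 11 tested pluripotency markers 8 were lower in CAG150 cells at day 4 (72.7% called, against 15.8% of all genes). They summed to 784 to 868 in CAG150 cells and 2067 to 2370.4 in HM1 cells, and their part in the Epha2 value was not tested.

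Among EphB receptors, Ephb1 measured 106, 114 and 86.2 in CAG150 cells, against 201, 199 and 206 in HM1 cells at day 6. All HM1 arrays lay well above the CAG150 arrays (-0.89 ± 0.12, adjusted p = 0.00017). At day 4 the difference was -0.28 ± 0.12, adjusted p = 0.13. Ephb3 measured 52.5, 62.3 and 58 in CAG150 cells and 105, 108 and 118 in HM1 cells at day 6, against 78.9, 65.8 and 70.0 in CAG150 cells and 95.9, 99 and 104 in HM1 cells at day 4. CAG150 arrays lay below HM1 arrays at both days, with differences of -0.78 ± 0.09, adjusted p = 4.8e-05 and -0.40 ± 0.09, adjusted p = 0.0081 at days 6 and 4. Ephb4, best known in mouse from veins, where it binds ephrin-B2, measured 53.4, 55.3 and 51.8 in CAG150 cells, against 90.8, 70.6 and 97.6 in HM1 cells at day 6 (-0.55 ± 0.10, adjusted p = 0.0023), with no overlap, and was lower at day 6 than at day 4 in both lines. Ephb6, a member without kinase activity, was dim and not called.

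Of 7 tested ephrins 1 was higher and 1 lower in CAG150 cells at day 6, and 0 were higher and 1 lower at day 4. These are 28.6% and 14.3% called, near the 21.4% and 15.8% of all genes. Efnb2, the ephrin-B ligand of arteries and of hindbrain boundaries, measured 1214, 1237 and 1214 in CAG150 cells, against 1006, 918 and 930.1 in HM1 cells at day 6, with no overlap (0.36 ± 0.07, adjusted p = 0.0045). At day 4 the difference was -0.06 ± 0.07, adjusted p = 0.65. Efna5, a ligand of Epha3 and Epha5, was lower in CAG150 cells at day 6 (-0.33 ± 0.10, adjusted p = 0.033), a call lost without CAG150 day 6 replicate 2 or 3 or HM1 day 6 replicate 1, 2 or 3 (adjusted p up to 0.11). It was lower at day 6 than at day 4 in both lines, by -0.78 ± 0.10, adjusted p = 5e-05 in CAG150 cells and -0.46 ± 0.10, adjusted p = 0.0034 in HM1 cells. With its probe sets averaged the Efna5 day difference in HM1 cells was -0.22, adjusted p = 0.22, and its line difference at day 6 was -0.19, adjusted p = 0.35, so that both calls were lost. Efna3 was lower in CAG150 cells at day 4 (-0.54 ± 0.13, adjusted p = 0.017), which was lost without CAG150 day 4 replicate 1 or HM1 day 4 replicate 1 (adjusted p up to 0.067). Efnb1 was not called on its brightest probe set, but another gave 0.67 at day 6 and 0.62 at day 4, both called. Efna2, Efna4 and Efnb3 were not called between the lines.

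Neural crest and neuron markers also moved between the lines. Of 10 genes on the neural crest list 9 were tested, of which 4 were higher and 2 lower in CAG150 cells at day 6, and 2 and 2 at day 4. These are 66.7% and 44.4% called, against 21.4% and 15.8% of all genes. The list summed to 1846 to 2311 in CAG150 cells and 901 to 1071 in HM1 cells at day 6, and 653 to 742 in CAG150 cells and 488 to 608 in HM1 cells at day 4. Postmitotic neuron markers were higher for 13 of 15 and lower for 0 at day 6, and 6 and 2 at day 4 (86.7% and 53.3% called). The part of either cell type in the results for Dcc, the Slits and the EphA receptors was not tested.

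Of the 22 genes called at day 6, 16 had another probe set above the filter. For 15 of the 16 every probe set had the same sign, and for 9 another probe set was called the same way. At day 4 the numbers were 15 of 19 called genes with another probe set, 14 with 1 sign throughout and 8 with another called the same way. In none of the 5 comparisons was another probe set called the opposite way. Averaging the probe sets of each gene also ended the line calls of Unc5b at day 6 (-0.40, adjusted p = 0.055), of Ntn4 at day 4 (0.27, adjusted p = 0.14), of Sema3a at day 4 (-0.25, adjusted p = 0.14) and of Plxna4 at day 4 (0.30, adjusted p = 0.22). It brought the called line difference of Epha5 at day 6 to 0.49, that of Ntn1 at day 6 to -0.60, that of Dcc at day 4 to 0.82 and that of Nrp1 at day 4 to 0.28, all still called. The day change of Sema6d became 0.88 in CAG150 cells and 0.86 in HM1 cells, and was still called in both.

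**Figure D4:**
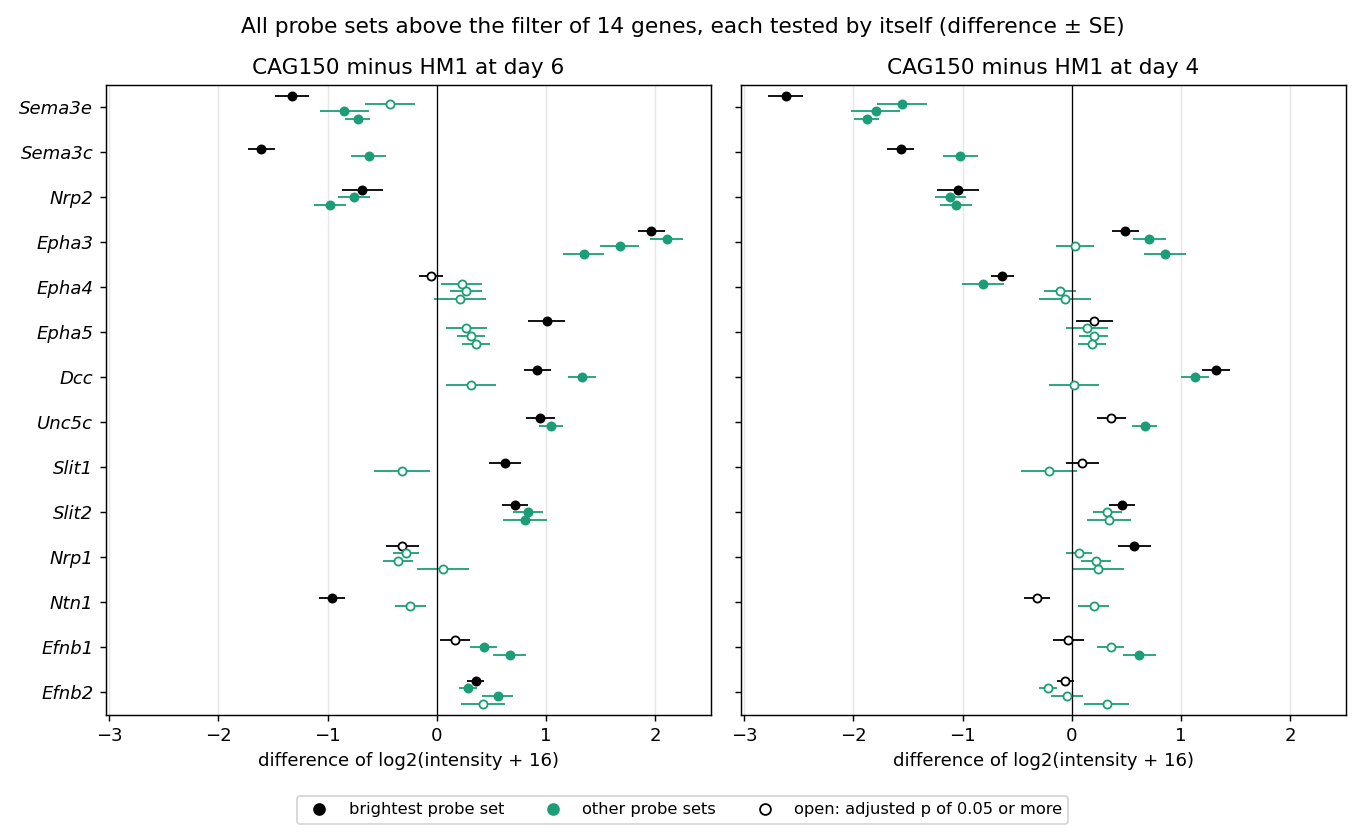
CAG150 minus HM1 log2 difference of every probe set above the filter for chosen guidance genes, at day 6 and at day 4, on a shared axis. The 4 probe sets of Epha3 lie above 0 at day 6, and the probe sets of Sema3e, Sema3c and Nrp2 lie below 0 at both days.

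Guidance receptors act with coreceptors and adhesion partners, other cues and intracellular effectors. Of 18 partner genes 16 were tested, of which 4 were higher and 1 lower in CAG150 cells at day 6, and 3 and 2 at day 4. At each day 31.2% were called, against 21.4% of all genes at day 6 and 15.8% at day 4. Chl1, an L1 family partner of neuropilins, averaged 130.3 ± 13.3 in CAG150 cells and 57.6 ± 8.27 in HM1 cells at day 6 (0.99 ± 0.12, adjusted p = 8e-05). With the day, 12 partner genes were higher and 2 lower in CAG150 cells, and 10 and 0 in HM1 cells (87.5% and 62.5% called, against 44.4% and 38.9% of all genes). The medians at the 2 days were 0.16 and 0.04, against -0.00 and 0.01 for all genes.

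Of 16 genes for other cues 14 were tested, of which 7 were higher and 2 lower at day 6, and 4 and 3 at day 4. These are 64.3% and 50% called, against 21.4% and 15.8% of all genes. Slitrk1, a membrane protein with Slit-like repeats, averaged 154 ± 15.7 in CAG150 cells and 39.4 ± 11.1 in HM1 cells at day 6 (1.63 ± 0.14, adjusted p = 4.6e-06). Draxin, a secreted ligand of Dcc, averaged 50.5 ± 7.33 in CAG150 cells and 31.6 ± 5.55 in HM1 cells (0.48 ± 0.11, adjusted p = 0.0095). Of 55 effectors 49 were tested, of which 6 were higher and 5 lower at day 6 (22.4% called, against 21.4% of all genes), and 4 and 4 at day 4 (16.3%, against 15.8%). Dpysl4, of the collapsin response mediator family, averaged 1243 ± 18.8 in CAG150 cells and 739.9 ± 74.7 in HM1 cells at day 6 (0.74 ± 0.11, adjusted p = 0.00053). With the day, 21 effectors were higher and 7 lower in CAG150 cells, and 20 and 3 in HM1 cells (57.1% and 46.9%, against 44.4% and 38.9% of all genes).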

How the data were processed

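The authors deposited intensity values on a linear scale, per the file headers and the values, scaled so that each array's mean without the highest and lowest 2% of probe sets is 150. The sources used here do not name the software that made them. Controls (64 probe sets) were left out. By the platform annotation 34945 probe sets have 1 gene symbol, 932 several and 9160 none, and only those with 1 were named. Each gene was represented by its probe set with the highest mean of log2(intensity + 16), and genes whose mean lay above the 40th percentile (4.8 on the log2 scale, an intensity of 11.9) were kept, 12280 in all.

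Group means were fitted to the 12 arrays of 4 groups in 1 limma model, limma 3.58.1 in R 4.3.3 (8 residual and 4.46 prior degrees of freedom). It gave 5 comparisons: CAG150 minus HM1 at each day, day 6 minus day 4 in each line, and the difference of the day changes (interaction). P-values were adjusted with Benjamini-Hochberg over all genes, and 0.05 was the threshold. The fit was tested on simulated data. Each probe set above the filter was also tested by itself over 23082 probe sets, and values named as a probe set's come from that fit.

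Any of the 71 genes could be named, together with members of the other lists that passed. The genes and lists were chosen with earlier results of these data known, and the lists' counts are descriptions. Deviations of same-numbered arrays of different groups correlated at -0.133 to 0.122. No pairing by replicate number was visible, and the main fit used none. These correlations cannot tell whether same-numbered samples were prepared together. As alternatives, arrays were centred on their medians or quantile normalized, and the filter was dropped or set at the 60th percentile. Others were pseudocounts of 1 and 64, averaged probe sets of each gene, single probe sets, a replicate block, only the groups compared, a trended robust prior, and leaving out each array. Raw array files were not used here.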

Additional observations from a re-analysis of the deposited data

Results flagged for a closer look

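For 6 genes the change between the days differed between the lines by the interaction test. Each value is the day 6 minus day 4 log2 difference in CAG150 cells minus that in HM1 cells. It was 1.48 for Epha3, 1.29 for Sema3e, 0.58 for Epha4, 0.41 for Efnb2, -0.89 for Nrp1 and -0.89 for Slit3. Epha3 and Sema3e passed with every alternative, Slit3 with all but the stricter filter, where it was not tested, and the other 3 lost their calls under some alternatives. Nrp1 and Efnb2 lie on chromosome 8 and Slit3 on chromosome 11, whose genes were shifted between the lines in their median difference.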

How the results depend on the processing

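Counts here are of the 59 tested genes, which include Unc50. With 3 arrays per group, leaving out each array in turn gave 8 to 11 higher and 8 to 13 lower in CAG150 cells at day 6 (10 and 12 with all arrays). At day 4 it gave 6 to 11 higher and 7 to 9 lower (11 and 8). Between the days it gave 24 to 26 higher and 6 to 10 lower in CAG150 cells (25 and 8), and 21 to 27 higher and 5 to 7 lower in HM1 cells (27 and 7). For the interaction it gave 2 to 3 higher and 1 to 3 lower (4 and 2). The 4 genes with a positive interaction were 2 with median centring, without a filter or with each gene's probe sets averaged. The 2 with a negative one were 1 without a filter, with a pseudocount of 1, with single probe sets or with the replicate block, and 4 with a pseudocount of 64. The cause was not tested. The 11 higher genes at day 4 were 7 and 6 without CAG150 day 4 replicate 1 or 2, and the other counts between the lines or days stayed within 1.5 times. Sema3f at day 6 had -0.41 ± 0.12 (limma, adjusted p = 0.026) with the mean of its probe sets, against 0.05 on the brightest one. The replicate block, which the array deviations do not call for, ended the calls of Unc5b (adjusted p = 0.054 at day 6), Unc50 (0.058, day change in HM1 cells), Nrp1 (0.056) and Efnb2 (0.075, both for the interaction). Calls kept under every alternative in which the gene was tested, and without any 1 array, were 15 of 22 at day 6, 8 of 19 at day 4, 27 of 33 for the day change in CAG150 cells, 21 of 34 in HM1 cells and 3 of 6 for the interaction. Genes near the filter have little signal, so their differences depend most on the pseudocount.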
